A study of Mus musculus with 6 samples.

Results

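The cytosolic ribosomal protein genes encode the proteins that, with ribosomal RNA, build the small and large subunits of the cytosolic ribosome. Members were the protein-coding genes whose mouse symbol begins with Rpl or Rps followed by a number, with an optional letter a, x, y or l and further digits, together with Rpsa, Rplp0, Rplp1 and Rplp2. This gave 83 genes of the 56980 gene IDs in the count table, 21922 of which were annotated as protein-coding. Another 6 IDs matched the symbols but were annotated as pseudogenes and were left out, as were the 298 pseudogenes whose names carry a member's symbol followed by -ps.

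Whole islets were taken from the pancreas of 14-week-old mice, and their RNA was sequenced. The 3 knockout libraries came from SSBP3F/F; MIP-CreER mice, and the 3 control libraries from SSBP3F/F littermates, so both groups carried floxed Ssbp3 alleles, and the groups differed by the MIP-CreER transgene. MIP-CreER is a Cre recombinase, activated by oestrogen receptor ligands such as tamoxifen, under the mouse insulin promoter. The labels name no inducing agent, and mice with the transgene and intact Ssbp3 were not analysed here, so the transgene and the loss of Ssbp3 cannot be told apart. The Cre was thus directed to beta cells, while the RNA came from all cells of the islet preparation.

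Ribosomal proteins are made in near-equal numbers, and most are needed for a working ribosome. Their mRNAs are among the most abundant of a cell, and nearly all begin with a 5′ terminal oligopyrimidine (TOP) tract, a cytosine followed by a run of pyrimidines, through which the kinase mTOR and the binding protein LARP1 control their translation. In beta cells the same ribosomes carry the load of insulin synthesis.

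Totals were 14907641, 83647474 and 93841878 counts in knockout libraries 1, 2 and 3, against 17587055, 89044012 and 225428920 in control libraries 1, 2 and 3, so each group held 1 shallow library. Ssbp3 had 52.2, 58.1 and 57.1 CPM (counts scaled to a common library size) in knockout islets, against 65.8, 81.3 and 74.2 CPM in control islets. Every knockout library was below every control library, and the difference did not pass the test over all genes (log2 fold change -0.40, adjusted p = 0.0581, edgeR quasi-likelihood test). Summed markers of beta cells came to between 141032 and 158524 CPM in knockout libraries and between 187179 and 241792 CPM in control libraries, without overlap. Nearly all of that sum came from Ins2, Ins1 and Iapp. Of the 8 markers, 2, Mafa and Ucn3, were called lower. The libraries of Nkx6-1 (log2 fold change -0.02) and Slc2a2 overlapped between the groups, and those of the other markers did not. Markers of alpha, delta and PP cells came to between 25370 and 31108 CPM in knockout libraries and between 29247 and 45958 CPM in control libraries, with 1 of 8, Sst, called lower. Endothelial markers came to between 175 and 226 CPM in knockout libraries and between 143 and 162 CPM in control libraries, without overlap, with 1 of 4, Cdh5, called higher (adjusted p = 0.0481, edgeR). The part of these cell types in the members' values was not tested. Acinar markers came to between 38154 and 130870 CPM in knockout libraries and between 48688 and 98322 CPM in control libraries. Duct markers came to between 587 and 724 CPM in knockout libraries and between 570 and 768 CPM in control libraries. Of these 5 duct markers, 1 was called higher. No marker of any list was at 0 in all libraries, but only 7 of the 9 immune markers had enough counts for the test.

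Of the 83 members, 81 had enough counts for the test. The other two, Rpl10l and Rpl39l, are paralogs known for expression in testis, and both had 0 counts in every library, where 3 counts would correspond to 0.0284 to 0.194 CPM in knockout libraries and 0.0135 to 0.169 CPM in control libraries. At least 1000 counts were present in every library for 75 members, and the lowest count of any member called below was 466.

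Most members had a lower mean level in knockout islets, but few of them passed the test, and those few were among the members with the shortest coding sequence. The log2 fold change was below 0 for 76 of the 81 tested members and above 0 for 5. The median was -0.21 over the members, against -0.00 over all 18558 genes tested. It was -0.09 without control 2, with 58 members below 0, and -0.11 without knockout 3, with 61 below 0. With an offset for the transcript length and GC content of every gene it was -0.08, with 54 below 0. At a Benjamini-Hochberg adjusted p under 0.05 over all genes (edgeR quasi-likelihood test), 6 members were lower in knockout islets, or 7.41% of those tested, beside 3.35% of all genes, and none was higher, beside 3.72% of all genes. Calls in either direction made up 7.07% of all genes, close to the members' share. Among all genes with short transcripts, 5.35% of those under 1 kb and 5.19% of those of 1 to 2 kb were called lower. At an unadjusted p under 0.05, 20 members passed, all of them lower in knockout islets, beside 21.6% of all genes in either direction and 10.7% in the lower direction. In bulk islet RNA, fewer cells of a type and less RNA per cell cannot be told apart.

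All 3 knockout libraries were below all 3 control libraries for 16 members (19.8% of those tested), beside 14.1% of all genes. The members' share was close to that of all genes with short transcripts, 20.4% under 1 kb and 20.8% at 1 to 2 kb. No member had all its knockout libraries above all its control libraries, beside 14.0% of all genes. Besides the 6 called members, these 16 included Rpl7a, Rpl7l1, Rpl27, Rpl27a, Rplp2, Rps21, Rps25, Rps27a and Rps27l. Both subunits were represented, with 2 of 32 small-subunit genes and 4 of 49 large-subunit genes called lower, and medians of -0.23 for the small and -0.21 for the large subunit.

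**Figure D1:**
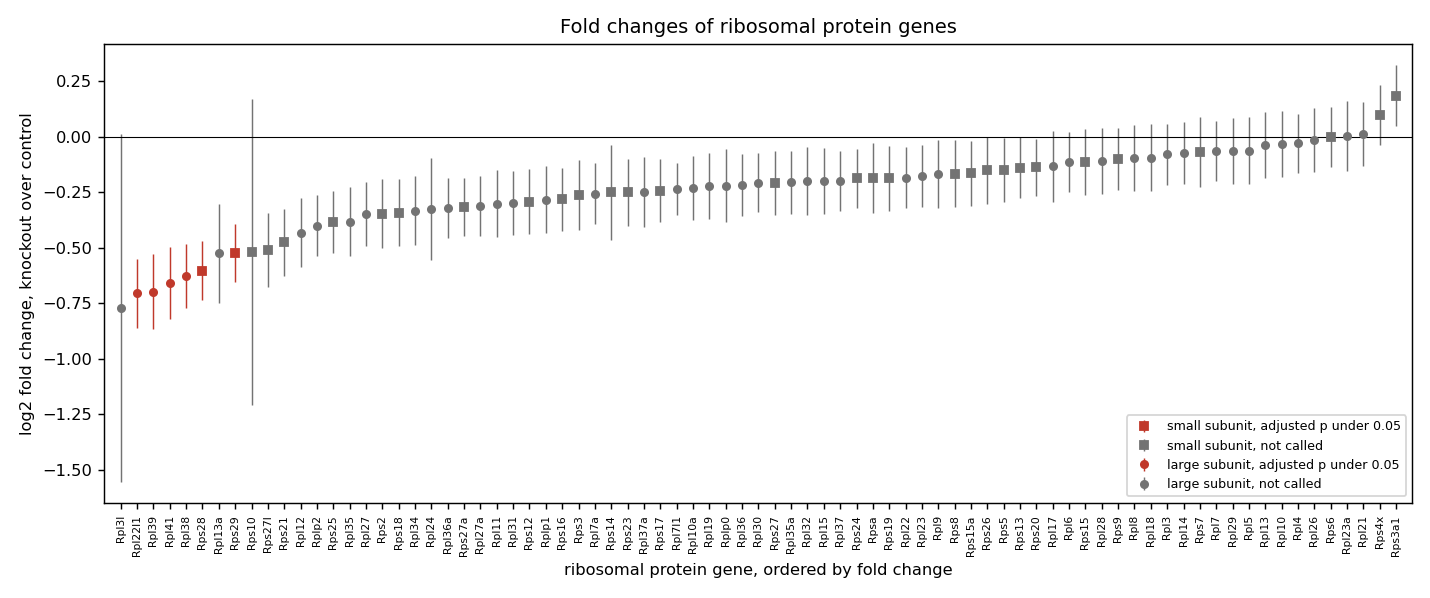
Log2 fold change (knockout over control) of 79 of the 81 tested ribosomal protein genes, ordered by fold change. Squares are small-subunit and circles large-subunit genes, bars are the standard error of the fit over 3 knockout and 3 control libraries, and red marks the 6 members with an adjusted p under 0.05. Of the 79 values, 75 lie below 0, and the 2 widest bars belong to Rpl3l and Rps10, which had very few counts.

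The 6 called members were Rpl22l1, Rps28, Rpl38, Rpl39, Rpl41 and Rps29. Rpl22l1 encodes a paralog of the large-subunit protein RPL22, and in mouse cells RPL22 is known to bind Rpl22l1 mRNA and keep its level low. It had 30.1, 27.0 and 22.8 CPM in knockout islets, against 47.7, 47.2 and 35.0 CPM in control islets. The groups did not overlap, although control 3 lay nearer to the knockout libraries than the other two controls did. Rpl22l1 averaged 26.6 ± 3.69 CPM in knockout islets and 43.3 ± 7.17 CPM in control islets (SD, n = 3 each), which gave a log2 fold change of -0.70 with a standard error (SE) of 0.155 (adjusted p = 0.0176, edgeR).

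Rps28 encodes a small protein of the small subunit near the exit of the mRNA channel. Its levels were 144, 159 and 120.2 CPM in knockout islets, against 238, 215 and 190.2 CPM in control islets, and the highest knockout library stood well below the lowest control (log2 fold change -0.60, SE 0.134, adjusted p = 0.0182, edgeR). Rpl38, a large-subunit protein known from the mouse mutant Tail-short for its part in axial patterning and in the translation of Hox mRNAs, had 143, 137 and 103 CPM in knockout islets, against 217, 202 and 172 CPM in control islets. Knockout 3 was the lowest library for Rps28 as for Rpl38, and control 3 was the lowest of the controls for both. The log2 fold change of Rpl38 was -0.63 (SE 0.143, adjusted p = 0.0210, edgeR).

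Rpl39, whose product lines the tunnel through which the new protein leaves the ribosome, had 85.6, 92.0 and 69.5 CPM in knockout islets, against 166, 134 and 102 CPM in control islets. The control libraries spread widely, at 134 ± 31.7 CPM, while the knockout libraries averaged 82.4 ± 11.6 CPM (SD, n = 3 each, log2 fold change -0.70, SE 0.168, adjusted p = 0.0272, edgeR). Rpl41, which encodes the shortest protein of the ribosome, had 494, 513 and 384 CPM in knockout islets, against 761, 843 and 589.9 CPM in control islets. Its groups did not overlap, and the log2 fold change was -0.66 (SE 0.163, adjusted p = 0.0295, edgeR). Rps29, a zinc-binding protein of the small subunit that is mutated in some people with Diamond-Blackfan anaemia, had 129.6, 143 and 104 CPM in knockout islets, against 184, 188 and 168 CPM in control islets (log2 fold change -0.52, SE 0.131, adjusted p = 0.0305, edgeR). The control libraries of Rps29 lay close together, and the knockout libraries spread further.

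**Figure D2:**
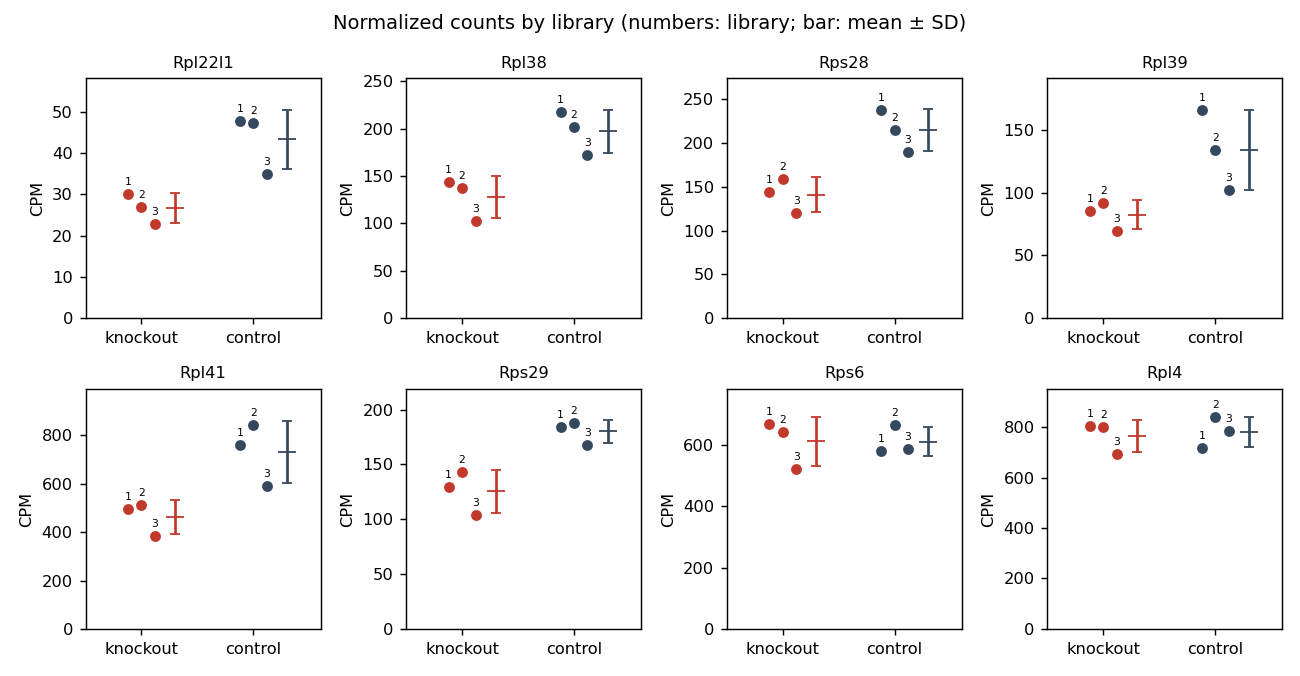
CPM (TMM-scaled library sizes) of the 6 called members and of Rps6 and Rpl4 in each of the 3 knockout and 3 control libraries, numbered, with the mean and SD beside the points. For the 6 called members every knockout library is below every control library, while the groups overlap for Rps6 and Rpl4.

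The number of calls depended on which libraries were kept. Without control 1 none of the 6 was called and 13 members had an unadjusted p under 0.05, while 1.80% of all genes were called lower. Without control 2 none was called and 8 members had an unadjusted p under 0.05, beside 1.16% of all genes called lower. Without knockout 1 the calls were Rpl22l1 and Rpl38, beside 1.38% of all genes, and without knockout 3 they were Rpl22l1, Rpl38 and Rps28, beside 2.67%. The same 6 were called without knockout 2, beside 2.05% of all genes, and 10 members were called without control 3, beside 3.07%. With both shallow libraries left out no member was called, 6 had an unadjusted p under 0.05, and 0.252% of all genes were called lower. The offset for length and GC content also left 0 calls, with 11 members at an unadjusted p under 0.05, although 3.39% of all genes were called lower in that fit. The 6 log2 fold changes then ran from -0.56 for Rpl39 to -0.31 for Rps29, with adjusted p between 0.0810 and 0.146 (edgeR). DESeq2 called 7 members lower, beside 6.15% of all genes. For these refits the share of all genes at an unadjusted p under 0.05 is not given. The member counts at that threshold therefore cannot be read as an excess. In the fit over all 6 libraries that share was 21.6% in either direction.

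The sequence around the annotated start site is shown for members that were called lower and for members that were not, since the TOP tract lies there and is known to govern these mRNAs. Each line gives the 20 bases before the start site and the first 20 bases from it, from RefSeq on build GRCm38.p6, 5′ to 3′ on the strand of the gene, with the longest run of C and T in capitals and, of equally long runs, the one nearest the start site. RefSeq start sites can miss the true first base by several positions. The first 5 genes were called lower, and Rps6, Rpl4 and Rps3a1 were not called.
Rpl22l1, chr3:28805488-28805527, plus strand: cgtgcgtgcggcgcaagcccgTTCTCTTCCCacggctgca
Rpl38, chr11:114668560-114668599, plus strand: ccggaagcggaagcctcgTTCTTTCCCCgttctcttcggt
Rpl39, chrX:37085203-37085242, minus strand: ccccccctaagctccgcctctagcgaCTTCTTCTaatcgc
Rpl41, chr10:128549149-128549188, minus strand: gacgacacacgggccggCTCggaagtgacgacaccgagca
Rps28, chr17:33824543-33824582, minus strand: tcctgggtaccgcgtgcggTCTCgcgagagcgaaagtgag
Rps6, chr4:86857348-86857387, minus strand: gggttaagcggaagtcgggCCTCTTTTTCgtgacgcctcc
Rpl4, chr9:64173367-64173406, plus strand: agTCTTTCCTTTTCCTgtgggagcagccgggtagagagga
Rps3a1, chr3:86142649-86142688, minus strand: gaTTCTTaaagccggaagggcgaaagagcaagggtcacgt

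Rpl22l1 and Rpl38, called lower, and Rps6, not called, each had a run of 10 pyrimidines across or directly after the start site. Rpl4 had a run of 14 before its annotated start, and Rpl41 none longer than 3. Over the family, 63 of the 83 members had an entry, with 75 windows in all. A run of at least 6 pyrimidines lay in 45 of the 75 windows (60.0%), against 12308 of the 32851 windows of all genes (37.5%). The share was the same among called members, with 3 of 5 windows (60.0%), as among those not called, with 42 of 70 (60.0%). Such a run can lie before the start site, as at Rpl4, so it need not be a TOP tract. The annotated first base was C in 2 of the 5 windows of called members and 20 of the 70 (28.6%) of the others. Over all windows that share was 16.3%. The 5 windows of called members are too few for a comparison. The letters CCGGAAG, a core match to ETS-family factors such as GABPA, were present on either strand of the full 300-base window in 36.0% of member windows and 8.86% of all windows. They were in 3 of the 5 windows of called members and in 24 of the 70 (34.3%) of the others. The letters AAGATGGC, a match to the factor YY1, were in 10.7% of member windows and 2.75% of all windows.

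Fold changes ran with the length of the protein. The 81 tested members were split into groups of 27 by coding length, counted without the stop codon. In the group with the shortest coding length (75 to 399 bases), all 27 members had a log2 fold change below 0, with a median of -0.30, and all 6 called members fell here. All knockout libraries were below all control libraries for 10 of these 27, beside 14.1% of all genes and 20.4% of all genes with transcripts under 1 kb. The middle group (405 to 576 bases) had 0 calls, a median of -0.20 and 4 members without overlap. The group with the longest coding length (582 to 1257 bases) also had 0 calls, with a median of -0.12 and 2 members without overlap. Spearman's rho between log2 fold change and coding length was 0.47 across the 81 members, which share libraries and so are not independent. The called members had coding lengths of 75 bases (Rpl41), 153 (Rpl39), 168 (Rps29), 207 (Rps28), 210 (Rpl38) and 366 (Rpl22l1).

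**Figure D3:**
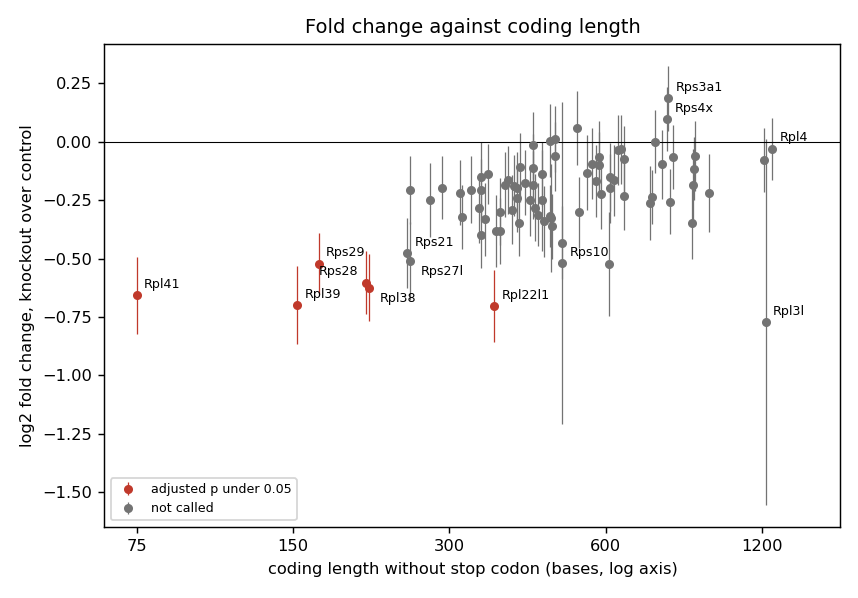
Log2 fold change (knockout over control) of the 81 tested members against coding length in bases without the stop codon, on a log axis. Bars are the standard error over 3 knockout and 3 control libraries and red marks an adjusted p under 0.05. The 5 members with a coding length of 210 bases or less were all called, and Rpl22l1 at 366 bases was the only other call.

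The same order was visible in the summed counts, which do not depend on how libraries are scaled to each other. The 27 members with the shortest coding length took 19.3%, 19.5% and 19.1% of all ribosomal protein counts in knockout islets, against 22.4%, 21.2% and 21.1% in control islets. The 27 with the longest took 50.2%, 49.8% and 51.2% in knockout islets, against 47.1%, 48.0% and 49.1% in control islets. Neither share overlapped between the groups. Both are parts of the same total and come from the counts that gave the fold changes, so they are not separate observations. The first share also holds all 6 called members. The ratio of the first sum to the second was 0.384, 0.392 and 0.373 in knockout islets, against 0.477, 0.441 and 0.431 in control islets. The 6 called members alone took 3.74% ± 0.082 of the family's counts in knockout islets and 5.11% ± 0.468 in control islets (SD, n = 3 each), values that describe the choice of these members.

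Fold changes ran with length across the transcriptome as well. All tested genes with transcripts under 1 kb had a median log2 fold change of -0.22 (2599 genes), close to the members' median of -0.21. The medians were -0.14 for 1 to 2 kb (4085 genes), 0.01 for 2 to 4 kb (6728 genes) and 0.17 above 4 kb (4703 genes). Spearman's rho between log2 fold change and transcript length was 0.27 over 18115 genes and 0.04 after the offset for length and GC content. Among the members, the difference in median between the shortest and longest coding groups was -0.18 with that offset, as it was without it, and the medians themselves moved to -0.16 for the shortest and 0.02 for the longest.

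**Figure D4:**
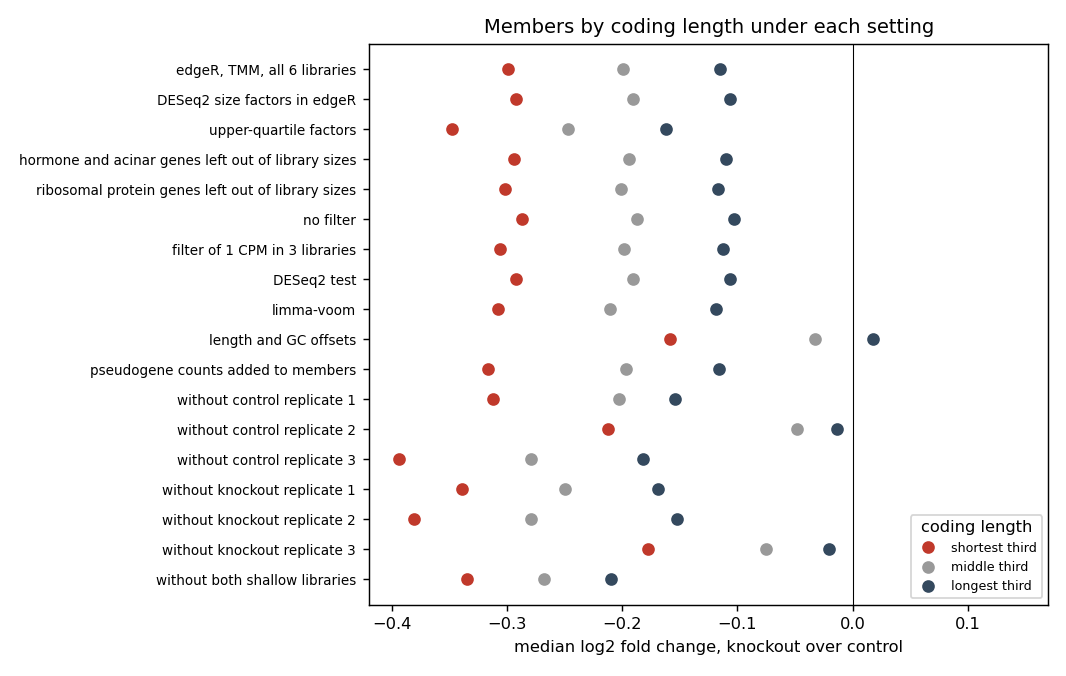
Median log2 fold change (knockout over control) of the 27 members with the shortest, middle and longest coding length, in the fit over all 6 libraries and under each of 17 alternatives. The shortest group lies below the longest in every one, by -0.125 to -0.229, and the longest lies above 0 with the offset for length and GC content.

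As a share of the library, the family did not separate the groups. Members took 2.87%, 2.68% and 2.46% of all counts in knockout libraries 1, 2 and 3, against 2.88%, 3.04% and 2.56% in control libraries. Control 3 was below knockout 1 and 2. Hormone and acinar enzyme genes take much of an islet library, and with them left out of the total the family took 3.85%, 3.74% and 3.28% in knockout libraries, against 4.05%, 4.49% and 3.72% in control libraries, still overlapping. The median deviation of the members from the control mean, in log2 CPM, was -0.09, -0.10 and -0.45 in knockout libraries 1, 2 and 3, and -0.03, 0.20 and -0.17 in control libraries 1, 2 and 3. Knockout 3 was the lowest library and control 2 the highest, and control 3 was below knockout 1 and 2. The small subunit took 40.6% ± 0.196 of the family's counts in knockout islets and 40.8% ± 0.710 in control islets (SD, n = 3 each). The difference of -0.213 points was smaller than the SD of the control libraries and slightly larger than that of the knockout libraries. The groups overlapped in this share.

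**Figure D5:**
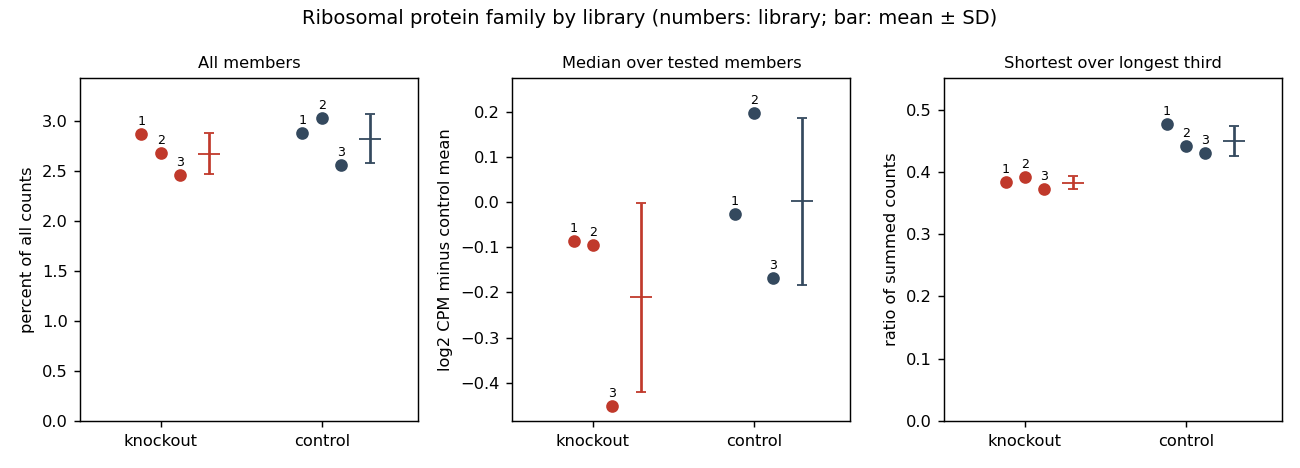
Values of the ribosomal protein family in each of the 3 knockout and 3 control libraries, numbered, with mean and SD. The left panel is the percent of all counts, the middle panel the median over tested members of log2 CPM minus the control mean, and the right panel the ratio of summed counts of the 27 shortest to the 27 longest members by coding length. The groups overlap in the left and middle panels and not in the right one.

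The acidic stalk of the large subunit, which recruits the GTPase translation factors, is built from RPLP0, RPLP1 and RPLP2. None of its genes was called. Rplp0 had 932, 1025 and 816 CPM in knockout islets, against 959, 1331 and 939 CPM in control islets (adjusted p = 0.491, edgeR). Rplp1 had 462, 511 and 383 CPM in knockout islets, against 502, 648 and 499.7 CPM in control islets (adjusted p = 0.306, edgeR). For both, knockout 2 lay within the range of the controls. Rplp2 had 156, 167 and 124 CPM in knockout islets, against 188, 224 and 178 CPM in control islets, without overlap, and a log2 fold change of -0.40 (adjusted p = 0.103, edgeR). Rpsa, the small-subunit protein also known as a laminin receptor, had 837, 845 and 667 CPM in knockout islets, against 824, 1062 and 789 CPM in control islets (adjusted p = 0.548, edgeR).

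Some ribosomal proteins have paralogs that can take their place, and Rpl22l1 was the only one of these to be called. Its partner Rpl22 had 107, 104 and 85.1 CPM in knockout islets, against 118, 126 and 93.0 CPM in control islets, with overlap (log2 fold change -0.18, adjusted p = 0.489, edgeR). The ratio of Rpl22l1 to Rpl22 counts was 0.281, 0.259 and 0.268 in knockout islets, against 0.404, 0.375 and 0.377 in control islets. The ratio was steadier between libraries of a group than the level of either gene. The annotated transcripts used were 552 bases for Rpl22l1 and 2051 for Rpl22, and the part of length in this ratio was not tested. Rps27l, a paralog of Rps27 known as a p53 target, had 80.6, 81.6 and 56.0 CPM in knockout islets, against 113, 114 and 83.1 CPM in control islets (log2 fold change -0.51, adjusted p = 0.0852, edgeR). The highest knockout library and the lowest control nearly met. Rps27 itself had a log2 fold change of -0.21 (adjusted p = 0.454, edgeR), and the ratio of Rps27l to Rps27 was 0.305, 0.311 and 0.266 in knockout islets, against 0.376, 0.360 and 0.358 in control islets.

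Rpl7l1 had 54.7, 62.2 and 54.7 CPM in knockout islets, against 63.8, 74.5 and 63.8 CPM in control islets (log2 fold change -0.24, adjusted p = 0.266, edgeR), and Rpl7 had a log2 fold change of -0.07 (adjusted p = 0.835). The ratio of Rpl7l1 to Rpl7 counts was 0.111, 0.124 and 0.1325 in knockout islets, against 0.1329, 0.135 and 0.144 in control islets. Knockout 3 and control 1 nearly met in this ratio. Rpl36a had a log2 fold change of -0.32 (adjusted p = 0.193, edgeR). Rpl3l, the paralog of Rpl3 in heart and skeletal muscle, was close to absent, with 0.517, 0.250 and 0.209 CPM in knockout islets, against 0.790, 0.572 and 0.252 CPM in control islets. Its log2 fold change of -0.77 was the lowest of the family but came with an SE of 0.783 (adjusted p = 0.630, edgeR). Rpl3 had a log2 fold change of -0.08 and Rpl10 of -0.03.

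The genes with the highest fold changes included Rps3a1, Rps4x, Rpl21, Rpl23a and Rps6, and no member was called higher. Rps3a1, a small-subunit protein that binds initiation factor eIF3, had 728, 644 and 561 CPM in knockout islets, against 555, 621 and 523 CPM in control islets. The groups overlapped (log2 fold change 0.19, SE 0.139, adjusted p = 0.489, edgeR). Rps4x, on the X chromosome, had 602, 579 and 485 CPM in knockout islets, against 505, 578 and 474 CPM in control islets (log2 fold change 0.10, adjusted p = 0.744, edgeR). The log2 fold changes of Rpl21 and Rpl23a were 0.01 and 0.00, and each of them turned below 0 in some of the alternatives.

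Rps6, the protein phosphorylated by the S6 kinases downstream of mTOR, had 670.1, 642 and 522 CPM in knockout islets, against 582, 667 and 586 CPM in control islets, with the knockout libraries both above and below the controls. Rpl5 and Rpl11, which with 5S rRNA can bind MDM2 and stabilise p53, had log2 fold changes of -0.06 (adjusted p = 0.861) and -0.30 (adjusted p = 0.276, edgeR). Rpl11 had 378, 374 and 290.2 CPM in knockout islets, against 417, 503 and 365 CPM in control islets, and only control 3 reached into the knockout range. Rps21, among the shortest of the small-subunit proteins, had 188, 184 and 141 CPM in knockout islets, against 258, 263 and 194 CPM in control islets. Its groups nearly met but did not overlap (log2 fold change -0.48, adjusted p = 0.0772, edgeR).

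Levels between genes were compared in RPKM, which is CPM divided by the transcript length in kilobases. Rpl41 was the most abundant member in both groups, at 1061 ± 159 RPKM in knockout islets and 1674 ± 296 RPKM in control islets (SD, n = 3 each). In knockout islets Rpl10, at 1049 ± 156 RPKM against 1073 ± 87.8 RPKM in control islets, lay within its spread. Next in control islets came Rps14, at 1011 ± 189 RPKM in knockout and 1203 ± 354 RPKM in control islets, Rps2, at 904 ± 121 RPKM in knockout and 1149 ± 155 RPKM in control islets, and Rplp1, at 905 ± 129.7 RPKM in knockout and 1102 ± 170.3 RPKM in control islets. Within each group, Rps14, Rps2 and Rplp1 did not differ from each other beyond their spread. Among the 79 members above 1 CPM in control islets, the median was 360 RPKM in knockout and 412 RPKM in control islets, and the order of the members was much the same in both groups (Spearman's rho 0.98 across 79 genes). RPKM of Rps15a and Rps20 was low beside their CPM because the annotated transcripts used were 5179 and 3706 bases long.

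At the other end, Rps10, Rpl24 and Rpl13a, which are core subunits in every cell, had few counts. Rps10 had 0.517, 0.474 and 0.246 CPM in knockout islets, against 0.339, 0.946 and 0.406 CPM in control islets. Rpl24 averaged 5.75 ± 1.17 CPM in knockout and 7.16 ± 1.16 CPM in control islets, and Rpl13a 14.9 ± 2.86 CPM in knockout and 21.5 ± 6.15 CPM in control islets (SD, n = 3 each). In the GENCODE annotation 20.6%, 47.0% and 35.4% of the exonic bases of these genes are shared with other genes on the same strand. A read-through gene is among those genes each time, with a miRNA and a snoRNA gene beside it at Rpl13a, and those read-through IDs had 0 counts. The pseudogene Rps10-ps2, whose sequence is near that of Rps10, had 111, 110.1 and 90.8 CPM in knockout islets, against 78.9, 114 and 90.04 CPM in control islets, and pseudogenes held 99.5% of the counts of Rps10 and its pseudogenes together. The levels of these 3 members are therefore uncertain, and no fold change of theirs was called.

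Reads may also be split between a member and its processed pseudogenes. Pseudogenes held at least 20% of the joint count for 10 members, among them Rpl35a (54.2%), Rpl36a (45.8%), Rps6 (40.6%) and Rpl23a (39.0%). None of these 10 was called, and their median log2 fold change was -0.22, against 6 called of 71 and a median of -0.21 for the others. Rps3a2, annotated as a pseudogene and named after Rps3a1, averaged 227 ± 37.9 CPM in knockout and 174 ± 22.0 CPM in control islets (log2 fold change 0.38, adjusted p = 0.133, edgeR). With the counts of named pseudogenes added to each member, the same 6 members were called lower, beside 3.41% of all genes.

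Other genes of the translation machinery were described by lists, whose few calls are to be read beside the 3.35% of all genes called lower and the 3.72% called higher. Fau, which encodes a ribosomal protein fused to a ubiquitin-like domain and lies outside the symbol rule, had 185, 194 and 151 CPM in knockout islets, against 199, 228 and 206 CPM in control islets. All its knockout libraries were below all its control libraries, without a call (log2 fold change -0.26, adjusted p = 0.260, edgeR). Rack1, a scaffold protein on the small subunit, had 533, 555 and 431 CPM in knockout islets, against 513, 660.3 and 463 CPM in control islets, with overlap (adjusted p = 0.756, edgeR). Among 21 other mRNAs known to carry a TOP tract, Fau and Rack1 included, 1 was higher and 0 were lower, with a median of -0.05 that moved to 0.09 with the offset for length and GC content. The call was Eif4b, an initiation factor that aids the helicase eIF4A, with 264, 251 and 267 CPM in knockout islets, against 185, 190.2 and 183 CPM in control islets (log2 fold change 0.49, SE 0.106, adjusted p = 0.0168, edgeR). Its libraries lay close together within each group, and the call was lost without control 1 (adjusted p = 0.0607), control 2 (adjusted p = 0.0651), knockout 1 (adjusted p = 0.0703) or both shallow libraries (adjusted p = 0.173). Eef2, which moves the ribosome along the mRNA, had 1746, 1758 and 1761 CPM in knockout islets, against 1117, 1394 and 1345 CPM in control islets, without overlap and without a call (log2 fold change 0.45, adjusted p = 0.0827, edgeR). Eef1b2 had a log2 fold change of -0.44 (adjusted p = 0.0964, edgeR) and Eif3f of 0.44 (adjusted p = 0.0548, edgeR), without a call for either. Of the 21 mRNAs, 12 had a log2 fold change below 0. The part of the TOP tract in these values was not tested.

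Of 30 initiation, elongation and release factors, none was called by edgeR, and 11 had an unadjusted p under 0.05, all of them lower. Over all genes, 21.6% passed that threshold in either direction and 10.7% in the lower direction. The median of the 30 factors was -0.24, with 27 below 0, and Eif5a had a log2 fold change of -0.41 (adjusted p = 0.0815, edgeR). Of 32 ribosome assembly genes none was called either, with a median of -0.11 and 25 below 0. An unadjusted p under 0.05 was found for 4 of them, all lower, beside the same 21.6% and 10.7% of all genes. Of 11 tested genes of RNA polymerase I and its factors, 1 was lower, with a median of -0.10. This was Taf1d, a subunit of the promoter selectivity factor of RNA polymerase I, with 7.76, 6.83 and 5.18 CPM in knockout islets, against 14.3, 12.4 and 11.3 CPM in control islets (log2 fold change -0.95, SE 0.202, adjusted p = 0.0150, edgeR). The groups of Taf1d did not overlap, and its call was lost without control 1 (adjusted p = 0.0613), without control 2 (adjusted p = 0.0506) and without both shallow libraries (adjusted p = 0.105).

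Among 20 regulators of ribosomal protein mRNA, 1 was lower and 1 higher. Their median of 0.15 moved to 0.05 with the offset for length and GC content. Of all 4703 tested genes with transcripts above 4 kb, the class of Deptor and several other regulators, 337 were called higher and 73 lower. Deptor, an inhibitor that binds mTOR, had 143, 121 and 146 CPM in knockout islets, against 82.2, 67.0 and 77.4 CPM in control islets (log2 fold change 0.86, SE 0.123, adjusted p = 0.00163, edgeR). Rheb, the small GTPase that activates mTOR complex 1, had 83.5, 83.9 and 71.5 CPM in knockout islets, against 113, 108 and 97.0 CPM in control islets (log2 fold change -0.41, SE 0.115, adjusted p = 0.0490, edgeR). Neither gene's libraries overlapped between groups. Deptor stayed called with any single library left out (adjusted p at most 0.0153) and was lost without both shallow libraries (adjusted p = 0.0759). The call of Rheb was close to the threshold. It was lost in 9 of the 17 alternatives, among them the offset for length and GC content (adjusted p = 0.0895). These also included the fits without any one of control 1, control 2, knockout 1, knockout 2 or knockout 3 (adjusted p between 0.0970 and 0.180), and without both shallow libraries (adjusted p = 0.235). Of 12 p53 targets 1 was higher, Trp53inp1, at 43.7 ± 4.45 CPM in knockout and 31.5 ± 2.75 CPM in control islets (SD, n = 3 each, log2 fold change 0.48, adjusted p = 0.0417, edgeR). That call was lost in 8 of the 17 alternatives. Among them were the fits with any of the 6 libraries left out (adjusted p between 0.0587 and 0.115), and without both shallow libraries (adjusted p = 0.138). Mdm2 and Cdkn1a, classical p53 targets, had log2 fold changes of -0.05 and 0.04 (adjusted p = 0.871 and 0.917, edgeR).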

How the data were processed

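RNA from whole islets was measured in 6 libraries, 3 knockout and 3 control, grouped by the genotype in the labels. The authors deposited unnormalized whole-number counts per Ensembl gene ID. The submitters' processing notes name STAR 2.7.3a, featureCounts, FastQC 0.11.9, Trim Galore 0.6.7 and the build GRCm39, without their settings. Strand setting, annotation release and the handling of reads with several alignments are not given in the sources, so overlapping genes and near-identical copies may share reads. Between 62.3% and 73.2% of the nonzero counts of a library were even, as happens where both mates of a pair are counted. Whether a library is 1 animal or a pool is not in the labels. The p-values therefore rest on library-to-library spread, which may be technical.

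Symbols (for 52073 of 56980 IDs), lengths and coding lengths came by gene ID from GENCODE M21, which is on another build than the counts. The exonic bases shared with other genes were taken from its exon coordinates and may differ on the build of the counts. Start-site windows came from RefSeq. The IDs lacking a symbol held 2.20% to 5.33% of a library's counts and stayed in library sizes and tests. In R 4.3.3 with edgeR 4.0.16, genes were filtered by filterByExpr, scaled by TMM and tested by the robust quasi-likelihood test with Benjamini-Hochberg adjustment over 18558 genes, calls at 0.05. The procedure was tested on simulated data. CPM used TMM-scaled library sizes, RPKM the annotated transcript length. Floors are 3 counts and cover counting error only. An exact permutation test of 3 against 3 cannot go below 0.10, so single values outside the fit were given without a test. Alternatives were other size factors and filters, DESeq2 1.42.0, limma 3.58.1 with voom, length and GC offsets, pseudogene counts added and libraries left out.

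The members and the lists were chosen with earlier results of these data known. Named were the stalk genes and Rpsa, paralogs with their partners, the 6 highest and 6 lowest fold changes, every called member, the 4 highest and 4 lowest levels per length, Rps6, Rpl5 and Rpl11, and up to 4 genes of each list by p. Rps21, Rps15a, Rps20, Rpl35a, Mdm2, Cdkn1a and the pseudogenes were named after their values were seen. A few genes that this rule or the lists name are not reported here.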

Additional observations from a re-analysis of the deposited data

How the results depend on the processing

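The count of members called lower was 6 in the fit described. It stayed at 6 with 7 of the alternatives (DESeq2 size factors, upper-quartile factors, hormone and acinar genes or the ribosomal protein genes left out of library sizes, a filter of 1 CPM, limma-voom, and pseudogene counts added). It was 10 with no filter, 7 with the DESeq2 test, 0 with length and GC offsets, 0 without both shallow libraries and 0 to 10 with a single library left out. None of the 17 alternatives called a member higher. Calls over all genes numbered 1312 in the fit described, 2153 with no filter, 2094 with DESeq2, 124 without both shallow libraries and 519 to 1309 with a single library left out. The members' median log2 fold change stayed below 0, from -0.29 to -0.08. The family's share of counts differed by -0.154 percentage points (knockout minus control), by -0.462 points with hormone and acinar counts left out, and by -0.286 to -0.0484 points with a single library left out. The cause of these shifts was not tested.

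Adjusted p ranged over the alternatives from 0.000217 to 0.149 for Rpl22l1, 0.000228 to 0.170 for Rpl38, 3.0e-05 to 0.233 for Rpl39, 0.000176 to 0.229 for Rpl41, 0.000463 to 0.203 for Rps28 and 0.00369 to 0.221 for Rps29. Of 610 values for 36 named genes, 514 kept direction and side of the threshold, 56 lost the call, 4 gained it and 36, none of them called, changed sign. Log2 fold changes that turned above 0 with length and GC offsets were 0.046 for Rpl3, 0.077 for Rpl7, 0.12 for Rpl10, 0.020 for Rps27, 0.15 for Rps6 and 0.023 for Rpl5. Rps6 was also at 0.0083 with DESeq2 size factors, 0.0050 with hormone and acinar genes left out, 0.012 with no filter and 0.0082 with DESeq2. Rps10 was at 0.14 with pseudogene counts added. Rpl23a was at -0.043 with upper-quartile factors, -0.0018 with the 1 CPM filter, -0.026 with limma-voom and -0.033 with pseudogene counts added, and Rpl21 at -0.035 with upper-quartile factors. Without both shallow libraries Rpl23a was at -0.11 and Rpl21 at -0.11. With a single library left out, log2 fold changes ranged from -0.13 to 0.075 for Rpl10, -0.13 to 0.025 for Rpl3, -0.18 to 0.035 for Rpl5, -0.13 to 0.032 for Rpl7, -0.066 to 0.10 for Rps6, -0.074 to 0.12 for Rpl21, -0.13 to 0.14 for Rpl23a and -0.74 to 0.10 for Rps10.

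No paired analysis was possible because the count columns carry no link to the numbers in the labels, and the groups share only 1 such number. Rpl3l and Rps10 had few counts, 8 each in knockout 1, so their fold changes are imprecise. With 1 shallow library in each group, leaving both out leaves 2 libraries against 2.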
